A study of Mus musculus with 9 samples.

Results

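DNA released from high-salt-extracted nuclei by the restriction enzyme StyI, called the Loop fraction, was compared with input genomic DNA, with the question of what the released DNA had lost or gained beyond the length of its fragments. The comparison took 6 of the 9 libraries of the series, chosen by their titles: 3 Loop libraries (replicates 1 to 3) and 3 input libraries, titled D0, D12 and D21. It covered the 2871947 StyI fragments of chromosomes 1 to 19 among 3053721 fragments in all, in coordinates of build mm9. All libraries came from E14Tg2a, an established line of mouse embryonic stem cells on the 129P2 background, maintained on gelatin in serum-containing medium with LIF, the cytokine that keeps such cells undifferentiated. No genetic change, drug or time course is given for either group. The labels leave the meaning of D0, D12 and D21 unstated, and the inputs were treated as 1 group. The label fields of D12 and D21 are worded differently from those that D0 and the Loop libraries share. The other 3 libraries, of DNA retained with the insoluble nuclear material (high-salt recovered sequences, HRS), are given beside some results as a description.

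High salt strips histones and many other soluble proteins from chromatin, and the DNA then spreads as loops around an insoluble nuclear remnant. Cutting these loops with a restriction enzyme frees the stretches that are not held by the remnant, while the DNA that stays attached is recovered with the pellet. In these libraries an adaptor was ligated to StyI ends, and the enzyme MmeI, which cuts at a fixed distance from its site, trimmed every captured end to a short tag. A fragment's count is therefore a count of its end tags and does not grow with its length as read coverage would.

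The deposited counts summed to between 58734270 and 62928317 tags in the Loop libraries and between 55212054 and 62169685 in the input libraries. Between 80.2% and 82.6% of the fragments of chromosomes 1 to 19 held a count in a Loop library, and between 81.9% and 82.1% did in an input. Libraries of the same group differed beyond counting error, with a chi-square per degree of freedom over 100 kb windows of 3.5 to 14.0. The 3 pairs with values above 10 were both pairs that held Loop replicate 3 and the input pair D0 and D21. D0 stood apart from D12 and D21 (8.6 and 11.3) more than these did from each other (3.9), and values without D0 are given with the counts of windows. No label says that the replicates were separate cultures, so every p-value rests on a spread among samples that could be technical alone.

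The Loop fraction was shifted to short fragments. The median length behind a counted tag was 225, 177 and 176 bp in Loop replicates 1, 2 and 3. It was 422, 411 and 430 bp in the inputs D0, D12 and D21, so the groups did not overlap, and 348 to 388 bp in the HRS libraries. The median over all fragments of the map was 537 bp.

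Classes of fragment length are given below by their limits, and the lower limit belongs to the class before. Fragments of up to 50 bp took 7.35%, 9.66% and 5.97% of the counts in Loop replicates 1 to 3 and 2.21%, 2.46% and 2.54% in the inputs, a mean share of 7.66% ± 1.86 (SD, n = 3) against 2.41% ± 0.173 and a 3.13-fold difference. Fragments of 50 to 100 bp took 19.5%, 23.7% and 20.5% against 8.26%, 8.89% and 8.77%, which is 2.45-fold higher. Those of 100 to 150 bp were 1.69-fold higher. At the other end, fragments of 1000 to 2000 bp took 9.77%, 9.53% and 5.27% of the counts in Loop and 15.0%, 15.0% and 15.8% in input, a 1.93-fold lower share. The deficit was 1.42-fold for 300 to 500 bp, 1.82-fold for 500 to 1000 bp, 1.97-fold for 2000 to 5000 bp and 2.18-fold for fragments over 5000 bp. In 8 of the 10 length classes every Loop library lay on the same side of every input library. For these 8 an exact two-sided permutation test gave p = 0.1, the smallest that 3 libraries against 3 allow, and 0.125 after Benjamini-Hochberg adjustment over the 10 classes. The groups overlapped at 150 to 200 bp (9.18% ± 2.89 against 7.30% ± 0.148) and at 200 to 300 bp (11.8% ± 3.30 against 12.3% ± 0.341). In the shortest class more different fragments were seen as well: 55.1%, 58.2% and 41.0% of fragments of up to 50 bp held a count in Loop, against 36.4%, 38.7% and 39.4% in input.

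**Figure D1:**
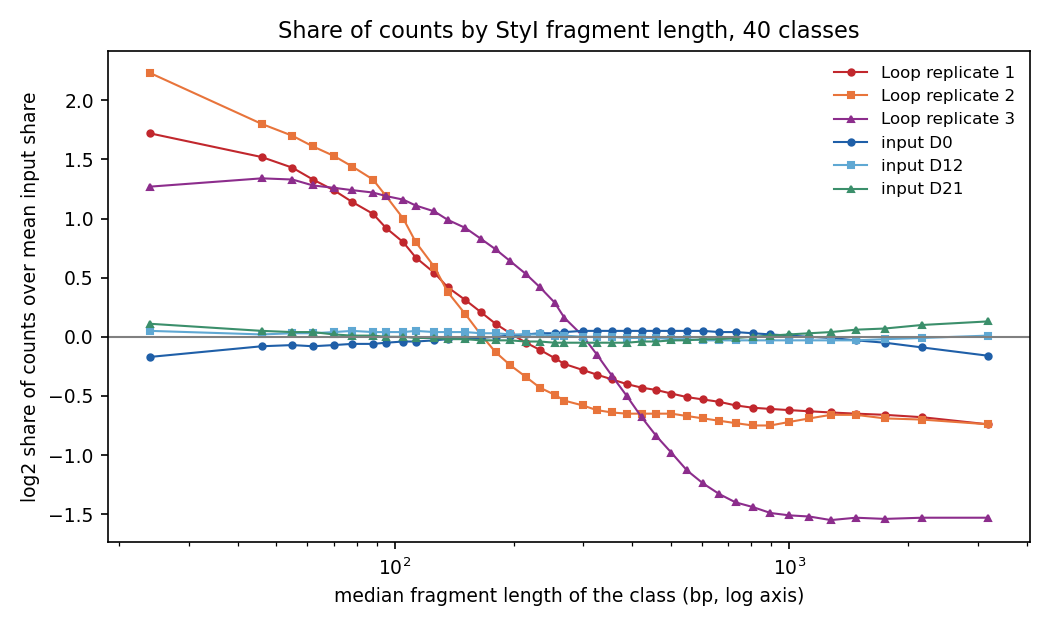
Log2 ratio of each library's share of counts to the mean input share (y axis) against the median fragment length of 40 length classes in bp (x axis, log scale), one line per library. The 3 Loop lines start high and end low but cross the input level at different lengths, and Loop replicate 3 lies lowest among fragments over 1000 bp, while the input lines stay near 0.

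The Loop libraries did not share 1 length profile. Across 40 narrower classes, the first class in which a library fell below the mean input began at 205 bp in Loop replicate 1, at 173 bp in replicate 2 and at 312 bp in replicate 3. The highest ratio to the input was 3.30 in replicate 1 and 4.68 in replicate 2, both among fragments of 6 to 41 bp, and 2.54 in replicate 3, among fragments of 42 to 50 bp. Among long fragments, replicates 1 and 2 fell to ratios of 0.597 and 0.596. Loop replicate 3 fell to 0.342, which is 2.92-fold under the input. The long-fragment deficit thus rested more on replicate 3 than on the others: without it the log2 ratio at 1000 to 2000 bp was -0.66 in place of -0.95.

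Genomic position was examined in 100 kb windows, of which 24027 held a fragment and 23824 passed the filter on low counts. With no allowance for length, edgeR's quasi-likelihood test called 2996 windows higher in Loop (12.6% of those tested) and 3489 lower (14.6%) at a Benjamini-Hochberg adjusted p under 0.05. The median change was 1.18-fold in the higher windows and 1.22-fold in the lower ones. The higher windows held short fragments, with a median over windows of the mean fragment length of 696 bp, and the lower windows held long ones, 1006 bp, against 863 bp over all tested windows. The longest runs of adjoining calls were 7 windows in both directions, on chromosome 5 at 27700001-28400000 among 4 such runs higher, and on chromosome 3 at 113500001-114200000 lower. Without 1 library, the count of higher windows went from 910 to 3783 and that of lower windows from 1391 to 3955.

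Each window was then given an expected count per library from its own fragments and that library's share of counts in each of the 40 length classes. The log2 ratio of Loop over input that these expected counts predict had an SD over windows of 0.17, close to the 0.19 of the measured ratios. Across windows the predicted and measured ratios correlated at r = 0.88 (rho = 0.90) over 23824 windows. That figure is a description only, since both came from the same libraries and windows are not independent replicates. Observed over expected counts are called the length-corrected level below. At 1, a library held the part of the window's own counts, pooled over the 6 libraries, that its length profile predicts. The Loop and input levels of a window therefore balance around 1, and an HRS level is set against the same pool.

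After this correction the SD of the log2 ratio over windows was 0.09, and 82.9% of windows lay within 0.1 of no difference, against 42.3% before. From the 1st to the 99th percentile the corrected log2 ratios ran from -0.16 to 0.22, that is from 1.12-fold lower to 1.17-fold higher. The median standard error of a window was 0.056 on the log2 scale, at a median of 12765 counts over the 6 libraries. Of the 23824 windows 4 were called higher in Loop (0.0168%) and 0 lower (0%) by edgeR's quasi-likelihood test. At an unadjusted p under 0.05 there were 1063 higher and 716 lower, and DESeq2 called 91 higher and 64 lower. All 3 Loop libraries lay above all 3 inputs in 7.18% of windows and below them in 6.50%. The corrected counts turned on single libraries. They were 17 higher and 0 lower without Loop replicate 1, 2 and 0 without Loop replicate 2, 16 and 3 without Loop replicate 3, and 0 in either direction without any 1 of the inputs D0, D12 or D21. Where the expected counts were built separately for each chromosome, an alternative added after the data were seen, 25 windows were higher (0.105%) and 6 lower (0.0252%).

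**Figure D2:**
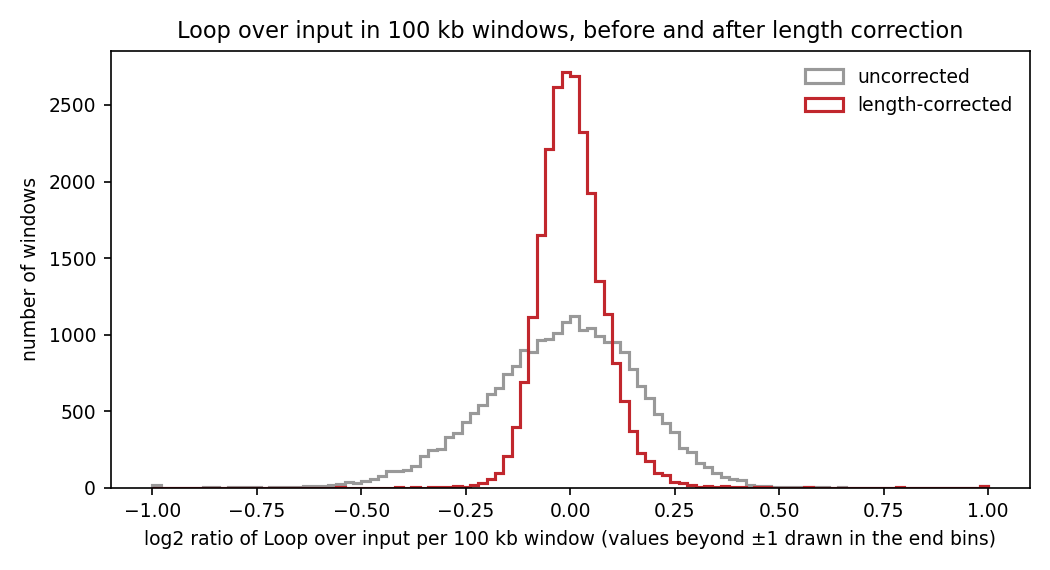
Number of 100 kb windows (y axis) by log2 ratio of Loop over input (x axis, bins of 0.02), before the length correction (grey) and after it (red). The corrected ratios form a narrower peak around 0, with an SD of 0.09 against 0.19.

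Each of the 4 called windows was led by 1 fragment. How tags that fit more than 1 place were counted is not given in the sources used here, so the counts of such a fragment may hold tags from elsewhere. On chromosome 15 at 74900001-75000000, the length-corrected level was 1.22, 1.87 and 1.37 in Loop replicates 1 to 3 and 0.53, 0.65 and 0.74 in the inputs D0, D12 and D21, without overlap. The log2 ratio was 1.22 ± 0.14 (SE, adjusted p = 0.0367 by edgeR), a 2.33-fold difference. A single fragment of 510 bp, at 74915504-74916014, held 76.2% of the counts of this window's 144 fragments, and without it the ratio was 0.04. In the HRS libraries this window stood at 1.95, 1.44 and 1.79. It was the only called window that also held at least the median count and so met the rule for naming windows. The other 3 are named because they complete the count of 4.

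The window on chromosome 4 at 3000001-3100000, the first mapped stretch of that chromosome, stood at 1.23, 1.21 and 1.44 in Loop and 0.71, 0.68 and 0.85 in input. Its log2 ratio was 0.79 ± 0.10 (SE). Of its counts 43.8% lay in a fragment of 2209 bp, and the ratio was -0.13 without it. In HRS this window stood at 1.74, 1.52 and 2.01, so it was above the input in both nuclear fractions. On chromosome 13 at 87500001-87600000 the levels were 1.18, 1.25 and 1.40 against 0.69, 0.82 and 0.84, with a log2 ratio of 0.71 ± 0.09 (SE). Here 25.7% of the counts lay in a fragment of 1991 bp, and the ratio was 0.06 without it. The HRS levels were 0.92, 0.79 and 0.95. On chromosome 7 at 23600001-23700000 only 2 of 117 fragments had any count, and 1 of 1668 bp held 99.6% of them. That window had 67, 77 and 67 counts in Loop and 14, 24 and 27 in input. Its level was 0.16, 0.50 and 0.38 in HRS and 0.23, 0.43 and 0.46 in input.

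These leading fragments went against the length profile of their libraries. The windows were called on length-corrected levels and led by these fragments, so the calls favour this, and it is a description only. The 1991 bp fragment of chromosome 13 was 3.07, 4.28 and 3.81 times the mean input in Loop replicates 1 to 3. Fragments of its length as a whole stood at 0.62, 0.62 and 0.35. The 1668 bp fragment of chromosome 7 stood at 2.85, 3.27 and 3.05 and the 2209 bp fragment of chromosome 4 at 2.11, 2.09 and 2.27. With the leading fragment of every window left out, 0 windows were called in either direction.

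**Figure D3:**
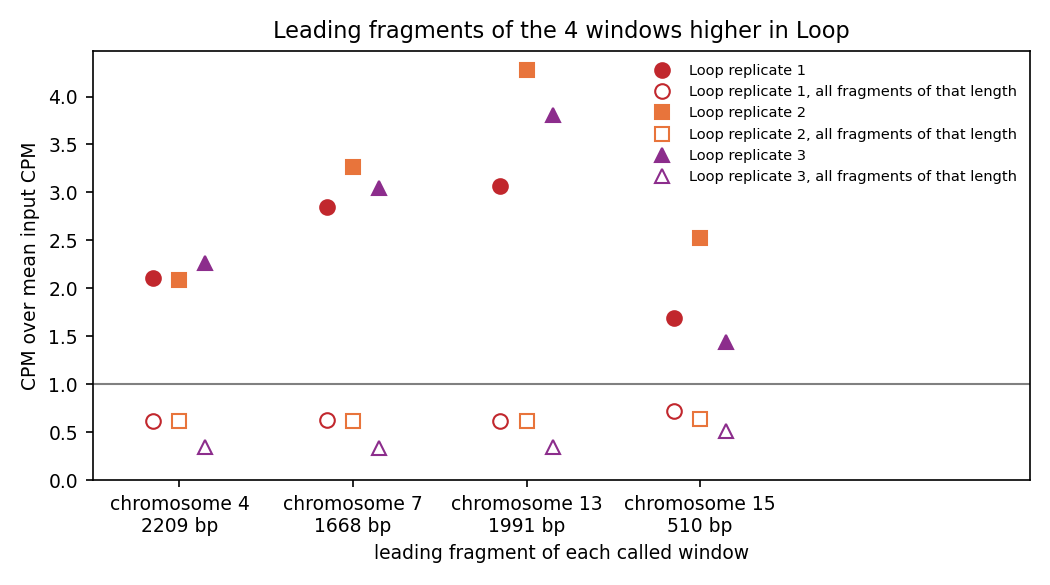
CPM (counts scaled to the library total) over the mean input (y axis, from 0) for the leading fragment of each of the 4 windows called higher in Loop (filled symbols), beside the same ratio for all fragments of its length class (open symbols), for Loop replicates 1 to 3. All filled symbols lie above 1 and all open symbols below it.

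The same windows were next tested within 6 broad classes of fragment length, each with its own expected counts, so that short and long fragments of a place were read apart. With all 6 libraries most calls lay among the long fragments. In fragments of up to 100 bp, 0 windows were higher (0%) and 6 lower (0.0256%) of 23438 tested, with 2718 in both directions together at an unadjusted p under 0.05. That class turned on Loop replicate 3, without which 41 windows were higher and 59 lower, and on chromosomes 8 and 11, without which there were 15 and 43. In 100 to 200 bp, 5 were higher (0.0212%) and 3 lower (0.0127%), and in 200 to 500 bp 15 were higher (0.0632%) and 0 lower (0%), with 1911 in both directions at an unadjusted p under 0.05. In 500 to 1000 bp 0.426% of windows were higher and 5 windows lower (0.0211%). In 1000 to 2000 bp there were 205 higher (0.866%) and 37 lower (0.156%), and in fragments over 2000 bp 425 higher (1.80%) and 46 lower (0.195%). The depth ran the other way, with a median of 2297 counts per window at up to 100 bp and 660 over 2000 bp. Classes were fitted separately, and the difference between them was not tested.

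**Figure D4:**
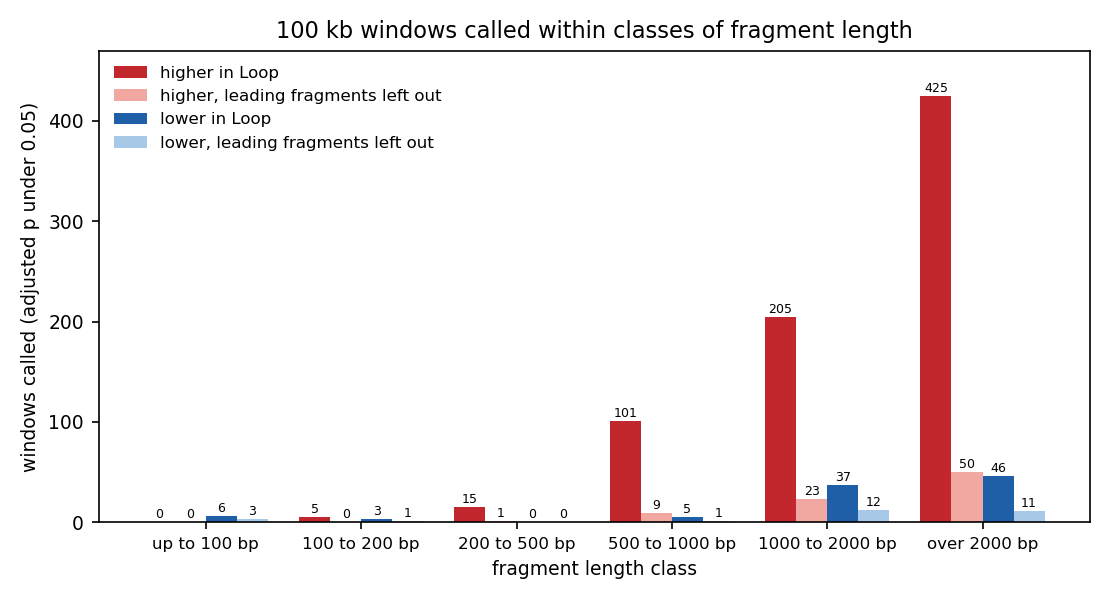
Number of 100 kb windows called higher (red) or lower (blue) in Loop against input within 6 fragment length classes (x axis), by edgeR at an adjusted p under 0.05. Pale bars give the counts with the leading fragment of each window left out, which takes the higher calls over 2000 bp from 425 to 50.

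In the 2 longest classes the counts depended on single libraries, most on the inputs. Over 2000 bp the share of higher windows, 1.80%, became 2.06%, 1.28% and 1.69% without Loop replicates 1, 2 and 3, and 0.985%, 0.955% and 0.853% without D0, D12 and D21. The 46 lower windows became 39, 35 and 67 without the Loop libraries in turn and 19, 11 and 10 without the inputs. At 1000 to 2000 bp the 205 higher windows became 271, 119 and 208 without the Loop libraries and 115, 84 and 80 without the inputs. The 37 lower windows became 20, 13 and 55, and 9, 3 and 9. At 500 to 1000 bp the higher windows were 171 without Loop replicate 1, 63 without Loop replicate 2 and 33, 30 and 44 without the inputs. The 15 higher windows at 200 to 500 bp became 41 without Loop replicate 1, 8 without Loop replicate 2 and 5, 4 and 9 without the inputs. More calls were thus made without Loop replicate 3 than with it in the lower direction of both classes.

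In the windows with a gain of long fragments, single fragments held much of the counts. Leading fragments were chosen by counts pooled over Loop and input, so that a gain raises, and a loss lowers, their own share. The median change of the higher windows was 1.61-fold over 2000 bp and 1.47-fold at 1000 to 2000 bp. In the 425 higher windows over 2000 bp the leading fragment held a median of 32.3% of the counts, against 18.6% over all tested windows. It held over 50% of them in 72 of the 425, against 2.5% of all tested windows. At 1000 to 2000 bp the median share was 22.4% against 10.1%. With the leading fragment of every window left out, an alternative added after the data were seen, 50 higher windows were called over 2000 bp and 23 at 1000 to 2000 bp. The leading fragments of the 425 windows stood at a median of 1.52, 1.82 and 1.38 times the mean input in Loop replicates 1 to 3, where fragments of their lengths stood at 0.60, 0.60 and 0.35. In Loop replicates 1, 2 and 3, 79.3%, 86.1% and 70.8% of them exceeded the mean input outright. Calls on length-corrected levels favour such fragments, so these values are a description only.

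The other fragments of the same windows differed little from the input. In the windows higher over 2000 bp, the median log2 ratio in the 5 shorter classes lay between 0.01 and 0.04. Yet more of them than of all windows were above 0: 230 of 421 at 1000 to 2000 bp, 266 of 421 at 500 to 1000 bp and 245 of 421 at 200 to 500 bp, against 50.7%, 50.0% and 50.9% of all windows tested there. At up to 100 bp it was 219 of 414 and at 100 to 200 bp 223 of 418. The windows higher at 1000 to 2000 bp had medians of 0.02 to 0.05 in the other classes. Of these, 127 of 200 at 200 to 500 bp and 122 of 198 over 2000 bp were above 0, against 50.9% and 49.6% of all windows. Their level in HRS was 0.83 at the median, with 42 of 205 above 1, against a median of 0.91 and 34.2% above 1 over all windows tested in that class. A gain in Loop raises the pooled counts and so lowers the levels of the other libraries. The input level of these windows was likewise 0.86 at the median, with 0 of 205 above 1.

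The gains with the highest ratios were followed up by the same naming rule within a class, 5 per direction, a choice made after the values were seen. At 1000 to 2000 bp the highest ratio was on chromosome 7 at 14200001-14300000, where 15 of 37 fragments had a count and 1 of 1383 bp held 94.3%. Its levels were 1.13, 1.39 and 4.88 in Loop and 0.43, 0.47 and 0.32 in input (log2 ratio 2.61 ± 0.29, SE, adjusted p = 2.14e-06 by edgeR). Loop replicate 3 was the high one, and without single libraries the ratio ran from 1.63 to 2.96. On chromosome 15 at 78500001-78600000 the levels were 1.34, 1.69 and 2.06 against 0.61, 0.57 and 0.74, a 2.65-fold difference. There 67.8% lay in a fragment of 1196 bp, and the ratio among the remaining fragments of the class was -0.15. Over 2000 bp the window at the start of chromosome 4 came first with 1.58, 1.52 and 2.91 against 0.50, 0.54 and 0.53 (log2 ratio 1.94 ± 0.18, SE). Its HRS levels in this class were 2.34, 1.86 and 2.87. The next, on chromosome 7 at 39000001-39100000, rested on replicate 3. It stood at 0.92, 0.87 and 4.70 in Loop, and its ratio of 1.75 was 0.57 without that library. The other named gains over 2000 bp, on chromosomes 15, 14 and 8, were also highest in replicate 3 (3.52, 3.91 and 2.82). Their ratios of 1.67, 1.59 and 1.43 were 1.06, 0.79 and 0.99 without it. At 1000 to 2000 bp the other named gains, on chromosomes 13, 4 and 1, were likewise highest in replicate 3 (2.65, 3.35 and 2.29).

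Among the losses of long fragments, few windows had most of their counts in 1 fragment, and few of all tested windows did. In the 37 windows lower at 1000 to 2000 bp the leading fragment held a median of 8.3% of the counts, against 10.1% over all tested windows. It held over 50% in 0 of the 37, against 0.7% of all tested windows. The median loss was 1.31-fold. The 46 windows lower over 2000 bp had a median loss of 1.54-fold and a leading share of 19.4%, against 18.6% over all windows. The leading fragment held over 50% in 2 of the 46, against 2.5% of all tested windows. With the leading fragment of every window left out, 12 windows were called lower at 1000 to 2000 bp and 11 over 2000 bp. The lists with and without them were not compared window by window.

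The other fragments of the 37 windows leaned the same way. Their median log2 ratio was -0.09 in each of the 3 classes up to 500 bp, -0.13 at 500 to 1000 bp and -0.27 over 2000 bp. Below 0 lay 33 of 37 windows at up to 100 bp, 31 of 37 in each of the next 3 classes and 30 of 36 over 2000 bp, where 49.1% to 50.4% of all tested windows did. Of the 46 windows lower over 2000 bp, 31 of 45 were below 0 at up to 100 bp and 33 of 46 at 1000 to 2000 bp, with medians of -0.11 and -0.08. The classes hold different fragments of the same 6 libraries, so these are not independent replicates.

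Windows whose long fragments were called lower in Loop than in input mostly stood above 1 in HRS. The HRS level at 1000 to 2000 bp had a median of 1.78 in the 37 lower windows, with 33 of 37 above 1, against 0.91 and 34.2% over all tested windows. In the 46 lower windows over 2000 bp it was 1.27, with 32 of 46 above 1. The expected counts behind these levels were pooled from Loop and input, so an HRS level shares libraries with the calls. A loss in Loop lowers that pool and so lifts the levels of the other libraries. The input level itself had a median of 1.09 in the 37 windows, with 37 of 37 above 1. In the 46 windows it was 1.15, with 46 of 46 above 1, so the HRS median of 1.27 was not far from it. No test was made.

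Of the 5 named losses at 1000 to 2000 bp, 3 lay on chromosome 13. At 23500001-23600000 the 23 fragments of this class, all counted, stood at 0.68, 0.85 and 0.61 in Loop and 1.16, 1.22 and 1.09 in input, without overlap. The counts behind these levels were 241, 293 and 109 in Loop and 627, 595 and 550 in input. The log2 ratio was -0.67 ± 0.10 (SE, adjusted p = 2.07e-04 by edgeR), and it was -0.65 without the leading fragment, which held 13.3%. In HRS the same fragments stood at 5.40, 5.57 and 7.83. At 21300001-21400000 the levels were 0.72, 0.78 and 0.71 against 1.06, 1.15 and 1.25, a 1.55-fold loss (adjusted p = 4.19e-04), with 4.77, 5.22 and 7.74 in HRS. At 22000001-22100000 the loss was 1.39-fold, and HRS stood at 5.27, 5.92 and 6.91. The first 2 of these losses stayed called without any 1 library, while the third, with a log2 ratio of -0.48, lost its call without Loop replicate 1 (-0.46), D0 (-0.41) or D12 (-0.45). The stretch of chromosome 13 that holds these windows is known for the large Hist1 cluster of histone genes, among tRNA genes, whose positions were not looked up here.

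The remaining 2 were on chromosome 19 at 8800001-8900000, 1.43-fold lower, and on chromosome 18 at 35700001-35800000, 1.38-fold lower. Their HRS levels were 2.26, 2.56 and 3.01 on chromosome 19 and 2.60, 2.68 and 3.32 on chromosome 18. The first was not called without D12 (-0.44), nor the second without Loop replicate 1 (-0.44), D0 (-0.38) or D12 (-0.47). Over 2000 bp the named losses did not all share a high HRS level. On chromosome 2 at 155900001-156000000 the levels were 0.74, 0.75 and 0.65 in Loop and 1.17, 1.23 and 1.06 in input, a 1.58-fold loss, and HRS stood at 2.86, 3.01 and 3.65. The window on chromosome 17 at 35100001-35200000 was 1.67-fold lower, with 1.80, 1.89 and 2.38 in HRS. The largest loss among the windows that met the naming rule in this class, on chromosome 3 at 143800001-143900000, stood at 0.75, 0.66 and 0.61 against 1.21, 1.00 and 1.31, and at 0.85, 0.90 and 0.89 in HRS. That value came from 8 fragments and from 31 to 198 counts per library. On chromosome 11 at 3100001-3200000 50.9% of the counts lay in 1 fragment of 3752 bp, and the log2 ratio of -0.75 was -0.18 without it. Without the input D21 the calls on chromosomes 3 (-0.68) and 11 (-0.61) were lost, and those on chromosome 2 at 155900001 and chromosome 17 held without any 1 library.

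Called losses lay close together in 2 stretches, which were picked after the calls were seen and so carry no test. On chromosome 10 at 79100001-81100000, all 20 windows had a corrected log2 ratio below 0 over all fragments, where 49.5% of all tested windows did. At 1000 to 2000 bp 7 of the 20 were called lower, against 0.156% of all windows, a contrast that the choice of the block fixes. At up to 100 bp 1 was called lower. Summed over its 3788 fragments the block stood at 0.95, 0.96 and 0.96 in Loop and 1.08, 1.04 and 1.02 in input, a log2 ratio of -0.13 or 1.09-fold lower. In each of the 6 length classes every Loop library lay below every input, which the choice of the block favours. How often other blocks of this size do so was not computed. The log2 ratio was -0.18 at up to 100 bp, -0.11, -0.11 and -0.12 in the next 3 classes, -0.25 at 1000 to 2000 bp and -0.21 over 2000 bp. The HRS libraries stood at 1.59, 1.56 and 1.93.

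On chromosome 13 at 21200001-23900000, the 27 windows around the losses named above, the deficit was seen among long fragments. Of these windows 3 were called lower at 1000 to 2000 bp, 3 lower over 2000 bp and 1 higher at 500 to 1000 bp. Over 2000 bp the block stood at 0.87, 0.90 and 0.89 in Loop and 1.10, 1.04 and 1.04 in input, 1.20-fold lower, and at 1000 to 2000 bp it was 1.07-fold lower. In these 2 classes every Loop library lay below every input. So it did in 9.45% and 8.58% of single windows tested there. Single windows hold fewer counts and were not picked by their calls, so these shares are no background for the block. At up to 100 bp the levels were 1.01, 1.01 and 1.00 against 0.99, 0.97 and 0.98, a log2 ratio of 0.04, and over all fragments it was -0.02 with the groups overlapping. The HRS level of this block was 2.33, 2.18 and 2.45 over all fragments and 2.47, 2.65 and 3.24 over 2000 bp. It was thus higher in HRS than the chromosome 10 block, while its deficit in Loop over all fragments was smaller.

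**Figure D5:**
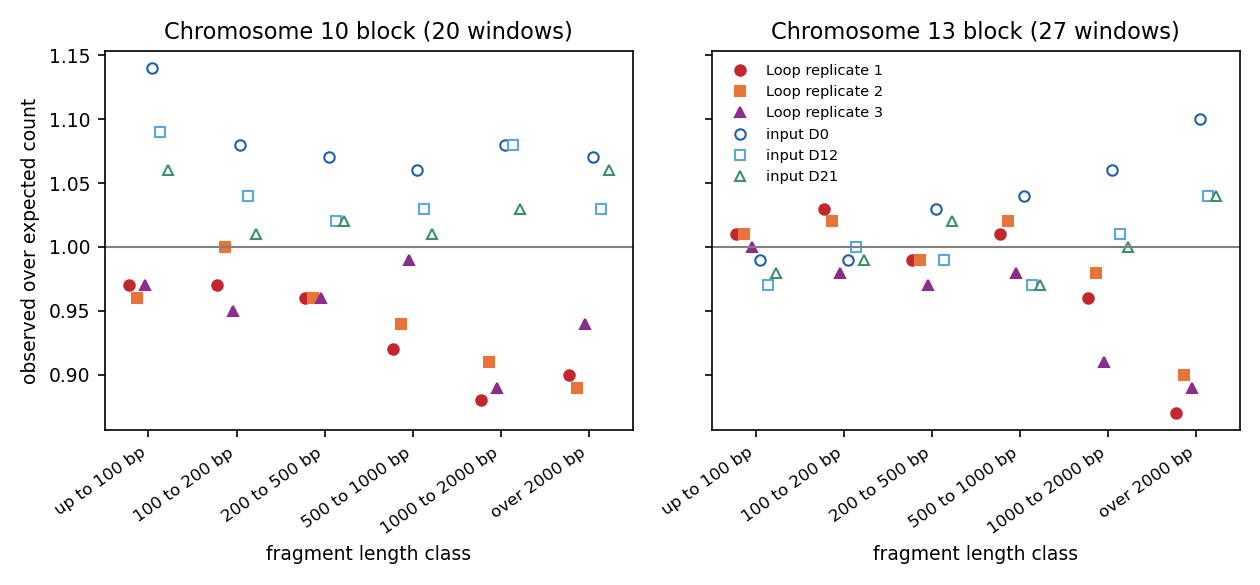
Observed over expected count (y axis) in 6 fragment length classes (x axis) for the chromosome 10 block of 20 windows and the chromosome 13 block of 27 windows, one symbol per library. On chromosome 10 the Loop symbols lie below the input symbols in all 6 classes, and on chromosome 13 they do so at 1000 to 2000 bp and over 2000 bp.

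With expected counts built by chromosome, the 6 lower windows included 3 from these stretches: 23500001-23600000 on chromosome 13 (log2 ratio -0.28 ± 0.05, SE, adjusted p = 0.0195 by edgeR), and 79600001-79700000 (-0.22) and 80600001-80700000 (-0.21) on chromosome 10. In these 3 the leading fragment held 4.6%, 1.8% and 1.8% of the counts. In the other 3 a single fragment held more of the counts. The window 109400001-109500000 on chromosome 13 had 31.3% of its counts in a fragment of 44 bp, which stood at 0.73, 1.00 and 1.15 times the mean input where fragments of its length stood at 2.86, 3.48 and 2.54. On chromosome 3 at 8200001-8300000, a fragment of 117 bp with 30.5% of the counts stood at 0.47, 0.50 and 0.20. Without these fragments the ratios were 0.07 and 0.11. On chromosome 14 at 3000001-3100000 only 5 of 124 fragments had a count, and a fragment of 1003 bp held 67.5%. The loss there did not rest on it, with a ratio of -1.12 and of -2.29 without it, from 133 counts over the 6 libraries.

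No whole chromosome passed the test after length correction. Of chromosomes 1 to 19, 0 were called in either direction (0%) by edgeR, with 0 at an unadjusted p under 0.05 and 0 called by DESeq2. Before it 2 were called higher (10.5%) and 2 lower (10.5%). The 3 highest corrected log2 ratios were those of chromosome 8 (0.101 ± 0.085, SE), chromosome 11 (0.084 ± 0.085) and chromosome 13 (0.009 ± 0.005). The 3 lowest were chromosome 17 (-0.011 ± 0.005), chromosome 19 (-0.009 ± 0.009) and chromosome 12 (-0.006 ± 0.010). Chromosomes 8 and 11 stood out through 1 library. Chromosome 8 stood at 0.965, 0.977 and 1.148 in Loop replicates 1 to 3 and at 0.997, 0.953 and 0.958 in input, and chromosome 11 at 0.955, 0.983 and 1.133 against 1.019, 0.954 and 0.950. HRS replicate 3 was likewise the highest HRS library on both, at 1.137 and 1.279. Without chromosomes 8 and 11, 25 windows were called higher and 6 lower after length correction.

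Windows were finally grouped by the number of StyI fragments they hold, which comes from the map alone. Before length correction the windows with fewest fragments, 1 to 97, were lower in Loop by 0.18 on the log2 scale, and those with most, 142 to 266, were higher by 0.11. After it the difference was 0.001, 0.008, 0.007, 0.002 and -0.007 from the sparsest to the densest of 5 groups of windows, and Loop and input overlapped in all 5. The exact two-sided permutation p was 0.5 or more. The chromosome ends were the first and last 2 Mb of mapped windows. In mouse the first lie beside the centromere, which was not itself measured. There the corrected difference was 0.019 in the first 2 Mb and 0.004 in the last 2 Mb (exact permutation p = 0.3 and 0.8). All these differences were smaller than the spread among the input libraries, whose SD was 0.052 in the sparsest windows, 0.026 in the densest and 0.028 in the first 2 Mb.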

How the data were processed

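The authors' deposited tables give a whole-number count of tags per StyI fragment and library (chromosome, start, end, count). The submitters' processing notes name CASAVA 1.8.2 and build mm9. How tags were aligned, or counted where they fit more than 1 place, is not given in the sources used here. Fragment positions are printed as deposited, with an unstated counting base, and window positions count from 1. The 21 last intervals of chromosomes were left out, as they end at no second StyI site.

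Groups came from sample titles. Counts were summed by fragment midpoint into 100 kb windows and fitted with edgeR 4.0.16 in R 4.3.3 (glmQLFit, glmQLFTest; TMM; filterByExpr with a minimum count of 10; Benjamini-Hochberg adjusted p of 0.05) on the 3 Loop and 3 input libraries. The length correction entered as an offset. The expected count of a fragment was its count pooled over the 6 libraries times each library's share of its length class, with 40 classes of about equal pooled count. TMM was then computed on counts over relative expected counts. Standard errors are the log2 ratio over the square root of the F statistic. Shares, density groups (windows cut into 5 by fragment number) and chromosome ends were compared by exact two-sided permutation of libraries. The leading fragment of a window is the one with most pooled counts.

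Windows were named by rule: up to 10 per direction with the largest corrected ratio among called windows with at least the median count and no overlap of the groups, and the 3 highest and lowest chromosomes. Windows within classes (5 per direction), both blocks and 3 further called windows were picked with their values in view. The comparison and its rules were chosen with earlier results of these data known. Alternatives were DESeq2 1.42.0, other scalings, filters, window sizes, class numbers and weights, and each library left out. Added after seeing the data were expected counts by chromosome and, within classes, leading fragments or chromosomes 8 and 11 left out. The window fits were tested on simulated counts of independent windows with a common dispersion. These held no shift of whole chromosomes and no change led by a single fragment, so that test does not cover such calls. Repeat tables were not used, and no gene annotation or sequence of build mm9 was used here.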

Additional observations from a re-analysis of the deposited data

How the results depend on the processing

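Counts below are windows higher and lower in Loop, in that order, and causes of the changes were not tested. Before length correction there were 939 and 1257 at an adjusted p of 0.01, 7440 and 8301 in 50 kb windows, 112 and 134 in 500 kb windows, and 876 and 1569 with all 9 libraries in 1 fit. After it there were 0 and 0 at 0.01, in 500 kb windows, with all 9 libraries and without leading fragments, 13 and 1 on library totals, 91 and 64 by DESeq2, 26 and 3 in 50 kb windows, 2 and 1 with weights from inputs only, and 25 and 6 without chromosomes 8 and 11 or with expected counts by chromosome. Within classes and with no offset, there were 12 higher at up to 100 bp, 254 and 125 at 100 to 200 bp, 1 lower at 200 to 500 bp and 9 lower at 500 to 1000 bp. Without leading fragments there were 3 lower at up to 100 bp, 0 and 1 at 100 to 200 bp, 1 higher at 200 to 500 bp, 9 and 1 at 500 to 1000 bp, 23 and 12 at 1000 to 2000 bp, and 11 lower with 0.214% of windows higher over 2000 bp. Without chromosomes 8 and 11 there were 15 and 43, 8 and 12, 41 and 6, and 180 and 24 in the 4 classes up to 1000 bp. With no offset 2 chromosomes were higher and 2 lower, and density groups 1, 2, 3 and 5 (from the sparsest) at -0.178, -0.107, -0.055 and 0.108. Without leading fragments the window ratio turned to -0.13 on chromosome 4, and within classes to -0.18 (chromosome 4), -0.09 (chromosome 7), -0.36 (chromosome 14), -0.12 (chromosome 15) and -0.10 (chromosome 1).

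With single libraries left out, the counts ran over 910 to 3783 and 1391 to 3955 before correction and 0 to 17 and 0 to 3 after it. Within classes from short to long they ran over 0 to 41 and 1 to 59, 1 to 11 and 1 to 4, 4 to 41 and 0 to 1, 30 to 171 and 1 to 11, 80 to 271 and 3 to 55, and 10 to 67 lower with 0.853% to 2.06% of windows higher. Log2 ratios of shares kept their sign in 9 length classes. They ran over 1.46 to 1.81, 1.21 to 1.35, 0.61 to 0.85, 0.04 to 0.46, -0.30 to 0.09 (0.09 without Loop replicate 2), -0.56 to -0.43, -1.02 to -0.64, -1.11 to -0.66, -1.12 to -0.71 and -1.25 to -0.88. Lower chromosomes ran from 0 to 1, with 1 without D0. The 5 density groups ran over -0.027 to 0.020, -0.008 to 0.017, 0.001 to 0.012, -0.002 to 0.005 and -0.015 to 0.006. The first 2 Mb ran over 0.008 to 0.033 and the last over -0.003 to 0.012. The sparsest was -0.006 without Loop replicate 1, and the last 2 Mb -0.001 without Loop replicate 3.

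No paired analysis was possible because the input titles carry no replicate numbers shared with the Loop libraries. With 3 libraries against 3, the median standard error of 0.056 on the log2 scale limits what a window can show, and windows over 2000 bp rest on a median of 660 counts. Ratios are relative to the average fragment, so a loss over the whole genome cannot be read from them.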
